A study of Sus scrofa with 19 samples.

Results

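Chamber identity transcription factors are the DNA-binding proteins that distinguish atrial from ventricular muscle during development and maintain that difference in the adult heart. The 10 genes described here, NR2F1, NR2F2, HEY2, IRX4, HAND1, HAND2, TBX5, TBX20, GATA4 and NKX2-5, were listed by name and matched through the gene symbols of the authors' table to the Ensembl genes of the count files. All 10 were found among the 25879 genes counted, and all 10 were among the 13552 genes that passed the filter on low counts. IRX4 and HAND1 passed it only through the libraries not titled RemoLV, so that their low values in RemoLV are a description. The 2 COUP-TF nuclear receptors (NR2F1 and NR2F2) are known for supporting atrial identity, whereas HEY2, a repressor downstream of Notch, and IRX4, an Iroquois homeobox protein, are known for ventricular identity. The bHLH factors HAND1 and HAND2 act mainly in the developing left and right ventricle, respectively. TBX5, TBX20, GATA4 and NKX2-5 belong to the core cardiac network, whose members are known to act together on DNA.

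RNA of myocardium from the LV of 19 pigs, labelled as female large whites, was sequenced with 1 library per pig. DOX pigs (n = 5) were given free doxorubicin and MYO pigs (n = 5) its liposomal form Myocet, both as 3 cycles of 60 mg/m2, and were examined after 3 months. RemoLV pigs (n = 3) had a coronary balloon occlusion of 90 min followed by reperfusion, Hyper pigs (n = 3) an aortic isthmus stenosis produced by a stent that the growing aorta outgrew, and Control pigs (n = 3) are called sham-operated in the labels and untreated in the study's methods, all followed for 6 months. RemoLV tissue was posterior wall remote from the infarct and that of the other groups anterior wall, and the DOX and MYO data were taken over from an earlier study, so that location, series and treatment cannot be told apart. Library totals were between 9527710 and 20370209 counts.

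Groups are used here as titled on the count files, and these titles conflict with the authors' table. Each of the 19 expression columns of that table was a monotone function of exactly 1 count file, but 8 of the 19 columns bear the name of another group. The table calls the 3 libraries titled RemoLV Control and those titled Control RemoLV, and it exchanges DOX replicate 5 with MYO replicate 1. The comparison of the 3 libraries titled RemoLV with all others therefore sets apart the same 3 libraries under both namings, whereas every comparison with Control depends on which name is right. DDX3Y, a Y-linked gene, had between 1143 and 2831 counts in every DOX and MYO library and at most 2 in the 9 others, although all pigs are labelled female.

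The tissue label was checked against markers of the chambers. The 3 libraries titled RemoLV were set against the rest because their MYL4 was high, so that MYL4 is a description here and supports nothing. MYL4, the atrial essential light chain, had a level of 7170 ± 1060 CPM (counts relative to the scaled library total, SD, n = 3) in RemoLV and group means between 1.02 and 9.87 CPM in the other groups. MYL2, the ventricular regulatory light chain, had 58.0 ± 50.8 CPM in RemoLV and group means from 10400 to 15900 CPM elsewhere. The 5 other atrial markers that were tested were all higher in RemoLV, where 20.0% of all genes tested were called higher, and all 3 ventricular markers tested (MYL2, MYL3 and MYH7) were lower, as were 20.1% of all genes. The libraries titled RemoLV therefore had far less of the defining marker of ventricular muscle, with 18.6 to 115 CPM of MYL2, and they are called RemoLV below only as their title. MYL3 fell less, to 2580 ± 490 CPM against group means from 5580 to 6850 CPM elsewhere (log2 fold change -1.21 ± 0.14, SE). MYH7 had 23800 ± 1950 CPM against group means from 33700 to 42800 CPM (-0.67 ± 0.14). Of the 11 atrial and 4 ventricular markers listed, 8 and 3 had a symbol. Of the atrial markers that were too low to test, HAMP had 0 CPM in every group, and BMP10 was near 0, with its highest group mean of 0.0564 CPM in RemoLV.

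The promoters of 4 genes are printed, because HEY2, IRX4 and HAND1 had the largest falls in RemoLV and NR2F2 rose there. Each is the 250 bases before the RefSeq start of the gene in Sscrofa11.1, read 5′ to 3′ on the gene's own strand, and capitals mark motif matches. HEY2 lies on chr1:37231322-37231571 (minus strand), IRX4 on chr16:78939783-78940032 (plus strand), HAND1 on chr16:68679727-68679976 (plus strand) and NR2F2 on chr7:83090251-83090500 (minus strand).
HEY2: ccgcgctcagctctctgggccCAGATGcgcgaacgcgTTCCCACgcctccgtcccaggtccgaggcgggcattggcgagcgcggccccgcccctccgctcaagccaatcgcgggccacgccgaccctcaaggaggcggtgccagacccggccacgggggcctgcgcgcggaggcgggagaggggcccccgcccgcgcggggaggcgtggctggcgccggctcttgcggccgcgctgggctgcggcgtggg
IRX4: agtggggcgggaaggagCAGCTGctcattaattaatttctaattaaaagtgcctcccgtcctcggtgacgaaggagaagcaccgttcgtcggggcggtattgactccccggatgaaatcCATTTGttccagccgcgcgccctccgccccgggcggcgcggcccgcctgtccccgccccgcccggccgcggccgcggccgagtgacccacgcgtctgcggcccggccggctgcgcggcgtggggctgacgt
HAND1: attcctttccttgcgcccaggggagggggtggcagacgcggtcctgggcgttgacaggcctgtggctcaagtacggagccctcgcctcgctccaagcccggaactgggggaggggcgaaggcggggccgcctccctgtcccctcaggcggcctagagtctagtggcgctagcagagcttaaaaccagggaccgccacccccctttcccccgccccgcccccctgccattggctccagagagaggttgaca
NR2F2: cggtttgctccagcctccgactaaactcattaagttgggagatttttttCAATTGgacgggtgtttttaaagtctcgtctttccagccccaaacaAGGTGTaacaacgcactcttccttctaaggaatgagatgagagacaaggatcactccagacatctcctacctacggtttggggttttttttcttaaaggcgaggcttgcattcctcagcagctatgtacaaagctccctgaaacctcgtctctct
Motifs were searched by their letters on both strands. The GATA motif was AGATAA, in which the first base could also be T and the last base also G. The T-box motif was AGGTGT, as bound by factors such as TBX5 and TBX20. The half-site of nuclear receptors was AGGTCA, which the COUP-TF proteins are known to bind. An E-box was CANNTG, the kind of site that HAND proteins bind, and the HEY E-box CACGTG is a special case of it. The RBPJ motif of Notch signalling was GTGGGAA, and the NKX motif was TNAAGTG. HEY2 held the RBPJ letters at -213 from its start, printed above in reverse complement, and 5.28% of the 19544 promoters of the annotation held them. NR2F2 held the T-box letters at -155, which 10.3% of promoters held. IRX4 held 2 E-boxes, a motif found in 61.9% of promoters, and HAND1 held none of the 7 motifs. A match describes these letters and is neither a bound site nor a cause.

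IRX4 and HAND1 were nearly absent from RemoLV, HEY2 was far lower there, and NR2F1, NR2F2, TBX5 and TBX20 were higher. In the comparison of RemoLV with the mean of the 4 other groups, 8 of the 10 factors passed the FDR threshold (an edgeR quasi-likelihood p of at most 0.05 after Benjamini-Hochberg adjustment over all genes tested), 4 higher and 4 lower. Over all genes, 40.2% passed it (20.0% higher and 20.1% lower). DEGs, which besides the FDR threshold had a log2 fold change of 2 or more in either direction, were 1 higher factor and 3 lower ones, against 4.07% of all genes (2.74% higher and 1.34% lower). The median absolute log2 fold change was 1.70 over the 10 factors and 0.35 over all genes tested. For 7 factors, 4 higher and 3 lower, no RemoLV library overlapped any other library, which held for 16.2% of all genes (8.18% higher and 7.98% lower). IRX4 and HAND1 are among the lower factors in each of these counts and passed the filter on low counts only through the other groups. The factors were also chosen with earlier results of these data known, so that these counts describe them and are no independent test.

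**Figure D1:**
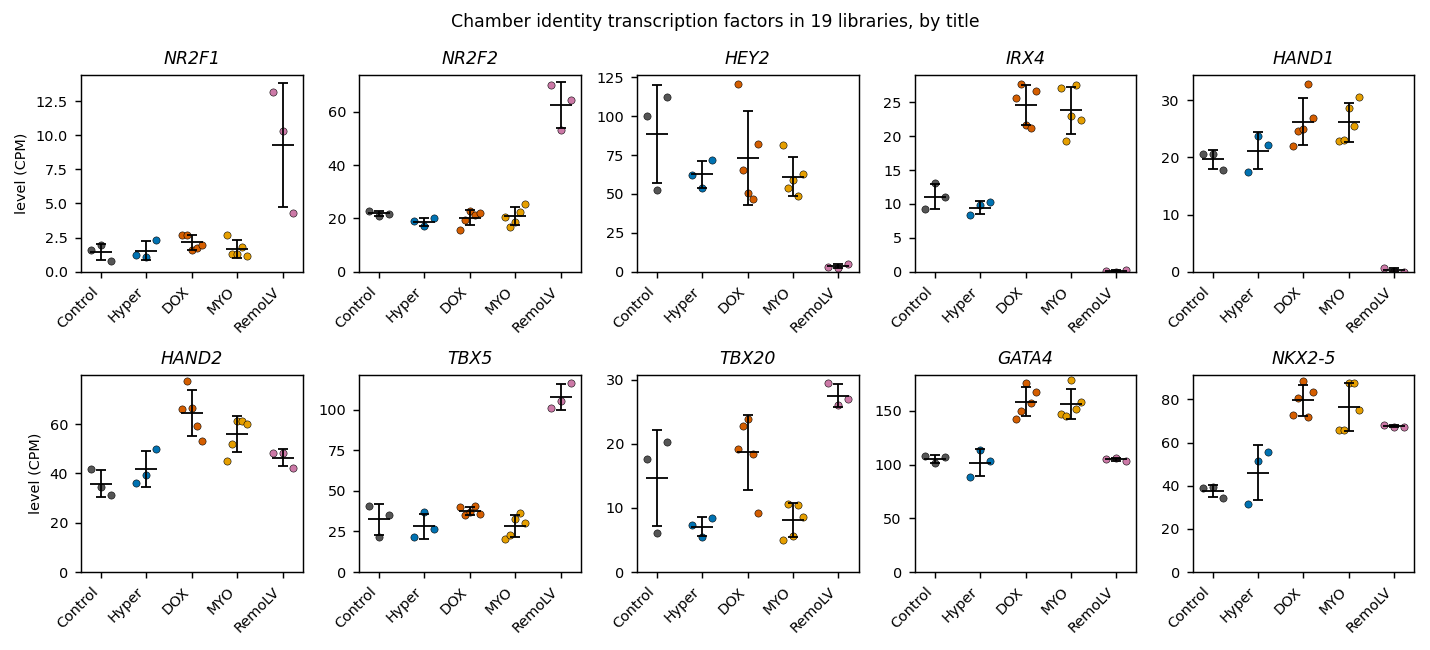
Level of each factor in CPM (y axis, linear from 0) in the 19 libraries, by the group of the title (x axis). Points are libraries, horizontal marks are means and error bars are SD. RemoLV libraries lie at 0 to 0.178 CPM for IRX4 and 0 to 0.633 CPM for HAND1, and above all others for NR2F1, NR2F2, TBX5 and TBX20.

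IRX4 had 2, 0 and 2 counts in the 3 RemoLV libraries. In the 16 others its level ran from 8.38 CPM through a median of 21.4 to 27.7 CPM. All 3 RemoLV libraries were thus near 0, and the groups did not overlap. Summed over libraries, IRX4 had 4 counts in RemoLV and 4160 in the others, a ratio of levels of 201 (95% exact interval 78.6 to 740.0, counting error only). The fitted log2 fold change was -7.27 ± 0.33 (SE), and its size depends on the prior count. IRX4 passed the filter on low counts only through the other groups, so that these values are a description. Without RemoLV replicate 2, the library with 0 counts, that of IRX4 was -6.57.

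HAND1 had 9, 2 and 0 counts in RemoLV. Its level in the 16 others was lowest at 17.5 CPM, with a median of 23.4 and a highest value of 32.9 CPM. The most that any RemoLV library reached was 0.633 CPM, far under the lowest of the others. The summed counts were 11 in RemoLV and 5339 in the others, a ratio of levels of 94.0 (95% exact interval 52.5 to 188), and the fitted log2 fold change was -6.45 ± 0.36. HAND1, like IRX4, passed the filter on low counts only through the other groups, so that these values are a description. RemoLV replicate 1 held 9 of the 11 counts, and without it the log2 fold change of HAND1 was -8.22.

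HEY2 was still detected in RemoLV, with levels of 3.03, 2.54 and 4.99 CPM. The other libraries ran from 46.5 CPM through a median of 62.6 to 121 CPM. The groups were apart by a wide margin, and the log2 fold change was -4.35 ± 0.36 (adjusted p = 3.63e-08), a fold of 20.4 lower. HAND2, the paralogue of HAND1, did not follow it: its RemoLV levels of 48.1, 48.4 and 42.3 CPM lay inside the range of 31.4 to 77.6 CPM of the other libraries. The log2 fold change of HAND2 was -0.06 ± 0.12 (adjusted p = 0.738).

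NR2F2 had 70.0, 53.1 and 64.4 CPM in RemoLV. In the 16 other libraries it ran from 15.6 CPM through a median of 20.8 to 25.5 CPM. The 3 RemoLV libraries were each above all others, with a log2 fold change of 1.62 ± 0.11 (adjusted p = 2.53e-09), or 3.07-fold. NR2F1 was the less abundant of the COUP-TF pair, with 13.2, 10.3 and 4.28 CPM in RemoLV and from 0.776 to 2.71 CPM in the others. The third RemoLV library was much the lowest of its group and yet above every other library, and the log2 fold change was 2.46 ± 0.28 (adjusted p = 1.82e-06). NR2F1 rested on few reads outside RemoLV, 11 to 43 counts per library.

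TBX5, known for its part in the atria, the conduction system and the left ventricle, had 101, 105 and 117 CPM in RemoLV. The other 16 libraries lay between 20.4 and 40.9 CPM with a median of 35.3 CPM. The groups did not overlap, and the log2 fold change was 1.77 ± 0.15 (adjusted p = 6.27e-08). TBX20, a T-box repressor and activator of the working myocardium, had 29.6, 26.0 and 27.0 CPM in RemoLV and from 4.99 to 23.9 CPM in the others. Its RemoLV libraries were tightly grouped just above the highest of the others, and the log2 fold change was 1.30 ± 0.26 (adjusted p = 0.000768).

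GATA4, a zinc finger factor of the core network, had 105, 106 and 103 CPM in RemoLV, within the range of 88.1 to 179 CPM of the other libraries. The log2 fold change of -0.28 ± 0.09 passed the threshold (adjusted p = 0.013), but the RemoLV mean of 105 CPM equalled that of Control (105 ± 3.53 CPM) and was near that of Hyper (102 ± 12.6 CPM). DOX (159 ± 13.5 CPM) and MYO (156 ± 13.7 CPM) had higher means. Against Control alone the log2 fold change was -0.01 ± 0.11 (adjusted p = 0.962), and with a correction for the GC content of the exons it was -0.27 (adjusted p = 0.0306). The call was lost without RemoLV replicate 3 (-0.27, adjusted p = 0.0595) and when each library had the same weight (-0.39, adjusted p = 0.141). NKX2-5, the homeodomain partner of GATA4, had 68.3, 67.3 and 67.2 CPM in RemoLV. These values lay inside the range of 31.5 to 88.6 CPM of the others, and the log2 fold change of 0.25 ± 0.13 did not pass the threshold (adjusted p = 0.127).

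**Figure D2:**
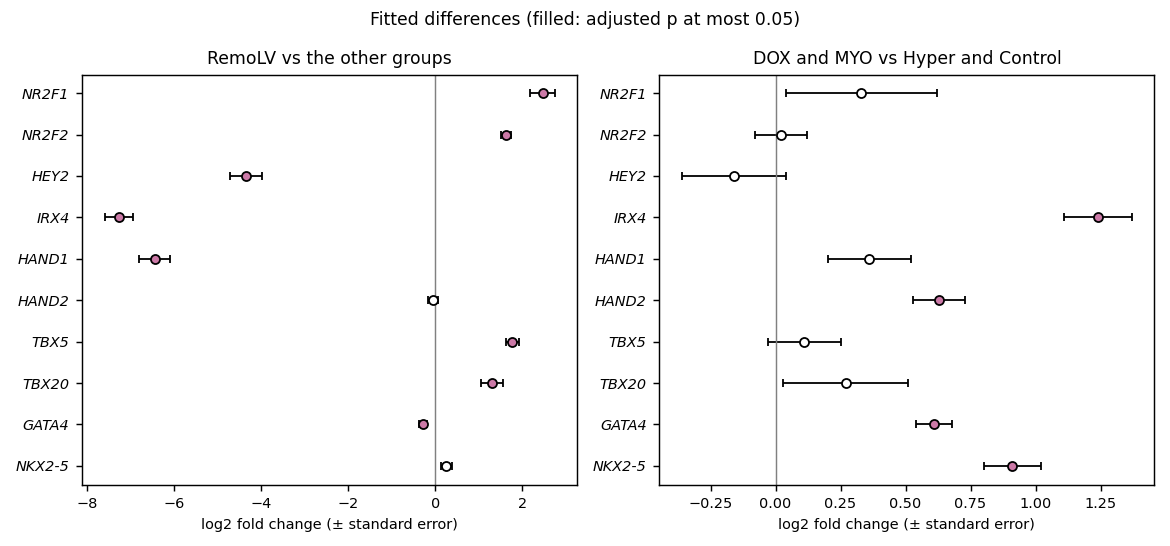
Fitted log2 fold change of each factor (x axis, error bars are SE) in RemoLV vs. the other groups (left) and DOX and MYO vs. Hyper and Control (right). Filled points had an adjusted p of at most 0.05, which were 8 factors on the left and 4 on the right.

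Beside these factors, markers of other cell types also differed in RemoLV, and their counts stand against 20.0% of all genes called higher and 20.1% called lower. The summed level of the fibroblast markers was 11000 to 12700 CPM in RemoLV and 1620 to 7340 CPM in the 16 others, with 6 of 9 markers higher and none lower. Endothelial markers summed to 772 to 806 CPM in RemoLV and 816 to 1160 CPM in the others, with 3 of 7 lower. Markers that all cardiomyocytes share summed to 30900 to 32800 CPM in RemoLV and 30300 to 44400 CPM in the others, with 1 of 7 higher and 4 lower. Neuron and Schwann cell markers summed to 14.2 to 39.5 CPM against 5.36 to 14.1 CPM, with 4 of 4 tested higher. Of these, PRPH (12 to 71 counts against 0 to 8) passed the filter on low counts only through RemoLV. Epicardial WT1 was lower (log2 fold change -3.74 ± 0.41), but it passed that filter only through the other groups, so that its value is a description. Only 1 of the 4 epicardial markers listed, WT1, had a symbol. Venous and lymphatic markers, whose endothelium is known to use NR2F2, summed to 58.3 to 76.7 CPM against 70.1 to 111 CPM, with 1 of 6 lower and none higher. Of the smooth muscle and pericyte markers 2 of 9 were lower, of the adipocyte markers 2 of 3 higher, and of the leukocyte markers 1 of 5 higher and 2 lower. The part of these differences in the values of the 10 factors was not tested, and in bulk tissue fewer cells of a type and less RNA per cell cannot be told apart.

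Levels of different genes were compared per kilobase of RefSeq exon. In Control, HEY2 (24.8 ± 8.81 CPM per kb), HAND2 (23.5 ± 3.51), NKX2-5 (22.6 ± 1.63) and GATA4 (18.9 ± 0.633) were the highest, and of these neighbours only NKX2-5 and GATA4 differed by more than their spread (1 SD). HAND1 (10.6 ± 0.89) and TBX5 (8.48 ± 2.51) came next and did not differ beyond their spread, followed by NR2F2 (5.18 ± 0.23), IRX4 (3.77 ± 0.647), TBX20 (2.29 ± 1.18) and NR2F1 (0.370 ± 0.156 CPM per kb), of which IRX4 and TBX20 did not differ beyond their spread. In RemoLV the order began with NKX2-5 (40.7 ± 0.345 CPM per kb), HAND2 (30.4 ± 2.24) and TBX5 (28.1 ± 2.08), of which the latter pair did not differ beyond their spread. HEY2 moved from the highest place in Control to the eighth in RemoLV (0.984 ± 0.363 CPM per kb), above only HAND1 and IRX4.

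Other cardiac transcription factors and their partners were taken from a list of 27 genes, of which 25 were tested. In RemoLV 5 were higher, 7 were lower and 13 did not pass the threshold, against 40.2% of all genes called. The lower ones include Iroquois genes that passed the filter on low counts only through the other groups.

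IRX3 and IRX5 were lower in RemoLV, as was IRX4. Like IRX4, both passed the filter on low counts only through the other groups, so that their values are a description. IRX3 had a mean level of 0.828 ± 0.408 CPM in RemoLV and group means from 44.5 to 69.1 CPM in the others (log2 fold change -6.00 ± 0.39). IRX5 had 6 counts in all of RemoLV and 2057 in the others, a ratio of levels of 66.4 (95% exact interval 30.5 to 181). IRX2 had 0 counts in each RemoLV library, 0 to 3 in Hyper and Control, and 10 to 42 in DOX and MYO, so that RemoLV, Hyper and Control were all at or under a floor of 3 counts per library and no fall against Hyper or Control could be seen. IRX1 and IRX6 had at most 1 count in any RemoLV library but did not pass the threshold in this comparison.

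**Figure D3:**
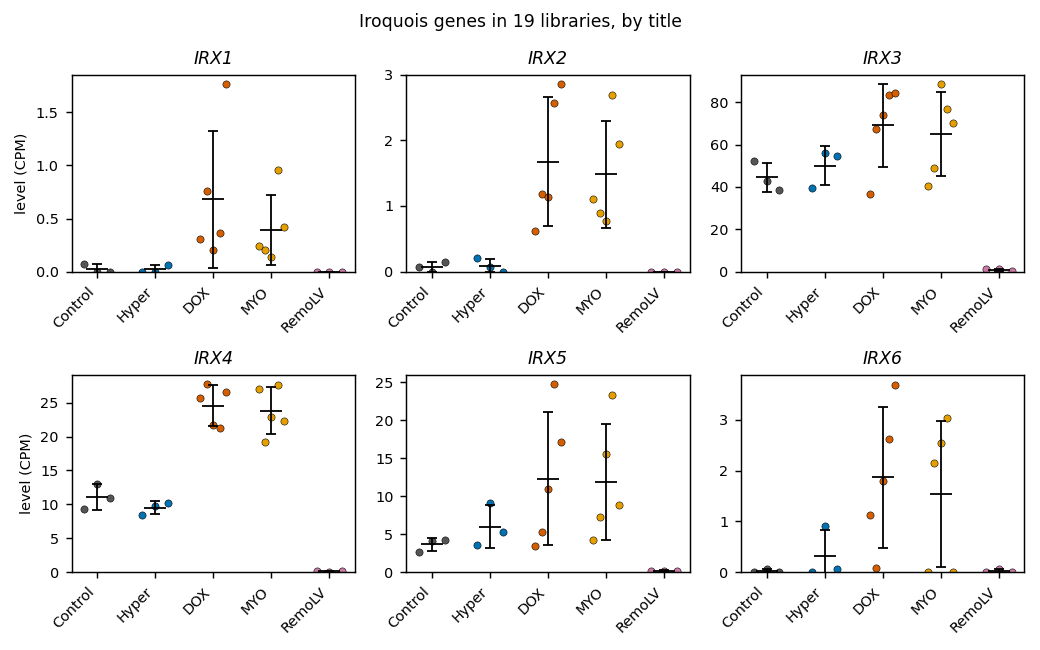
Level of the 6 Iroquois genes in CPM (y axes, linear from 0) by group of the title, with points for libraries, marks for means and error bars for SD, drawn from 0 upwards only. IRX4 lies between 19.3 and 27.7 CPM in DOX and MYO, between 8.38 and 13.1 CPM in Hyper and Control and at or below 0.178 CPM in RemoLV.

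Notch signalling, which HEY2 serves as an effector, and retinoic acid signalling, which is known for directing atrial fate, were followed through lists of 14 and 17 genes. Of 12 Notch genes tested, 4 were higher and 2 lower in RemoLV, against 40.2% of all genes called. The receptor NOTCH2 rose with a log2 fold change of 1.07 ± 0.11 (adjusted p = 5.66e-07), the HEY2 relative HEYL with 0.97 ± 0.23 (adjusted p = 0.00283) and the ligand JAG1 with 0.94 ± 0.12 (adjusted p = 6.38e-06). The receptor NOTCH4 (-0.40 ± 0.14, adjusted p = 0.0357) and the effector HES1 (-0.40 ± 0.15, adjusted p = 0.0422) fell, and the HEY2 relative HEY1 had -0.58 ± 0.25 and did not pass (adjusted p = 0.071). Of 13 retinoic acid genes tested, 4 were higher and 1 lower, again against 40.2% of all genes. Of the higher ones CRABP1, a binding protein for retinoic acid, had 26 to 125 counts per RemoLV library and 0 to 9 in the others, and passed the filter on low counts only through RemoLV, so that its values are a description. The nuclear receptor RXRG was the member that fell (-1.08 ± 0.15, adjusted p = 1.47e-05).

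Among the 16 libraries not titled RemoLV, IRX4, NKX2-5, HAND2 and GATA4 were higher in DOX and MYO than in Hyper and Control. The mean of DOX and MYO was set against the mean of Hyper and Control, and 4 of the 10 factors passed the FDR threshold, all 4 higher, while 50.7% of all genes passed it (25.8% higher). The share of factors called was thus no larger than that of all genes. The median log2 fold change was 0.34 over the factors and 0.03 over all genes. For 3 factors (IRX4, GATA4 and NKX2-5) the 10 DOX and MYO libraries did not overlap the 6 others, which held for 14.1% of all genes (6.61% higher). The earlier series, the shorter follow-up, the DDX3Y counts and the treatment all separate the same libraries and cannot be told apart.

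IRX4 ran from 19.3 CPM through a median of 24.3 to 27.7 CPM in DOX and MYO. In Hyper and Control it ran from 8.38 to 13.1 CPM with a mean of 10.3 ± 1.62 CPM (SD, n = 6). The groups were well apart, with a log2 fold change of 1.24 ± 0.13 (adjusted p = 7.15e-07), or 2.35-fold. NKX2-5 had 65.8 to 88.6 CPM in DOX and MYO against 31.5 to 55.5 CPM (0.91 ± 0.11, adjusted p = 2.82e-06). GATA4 had 142 to 179 CPM against 88.1 to 113 CPM (0.61 ± 0.07, adjusted p = 1.89e-06). HAND2 overlapped between the groups, at 44.9 to 77.6 CPM against 31.4 to 50.1 CPM (0.63 ± 0.10, adjusted p = 6.53e-05). HAND1 had a log2 fold change of 0.36 ± 0.16 that did not pass (adjusted p = 0.0618), passed with DESeq2 (0.34, adjusted p = 0.00636) and when only the groups compared were fitted (0.36, adjusted p = 0.0085), and did not pass with a correction for GC content (0.12, adjusted p = 0.541). The remaining 5 factors had log2 fold changes between -0.16 (HEY2) and 0.33 (NR2F1) and did not pass.

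Markers of cell types differed between these libraries too, where 50.7% of all genes were called and 25.8% were higher, so that several of these counts are near the background. The summed level of the fibroblast markers was 4720 to 7340 CPM in DOX and MYO and 1620 to 4000 CPM in Hyper and Control, with 4 of 9 markers higher and none lower, among them the collagens COL1A1 (log2 fold change 1.23 ± 0.21, adjusted p = 0.000111) and COL3A1 (1.06 ± 0.18, adjusted p = 0.000109). Markers that all cardiomyocytes share summed to 30300 to 40900 CPM in DOX and MYO and 33300 to 44400 CPM in Hyper and Control, with 1 of 7 higher and 5 lower. Of the atrial markers 2 of 6 were higher, MYL4 by 2.76 ± 0.45 and MYL7 by 2.47 ± 0.35, and of the 3 ventricular markers none passed. Their part in the values of the 10 factors was not tested.

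Fold changes in this comparison moved with the GC content of the exons over the whole genome. In 4 classes of genes of equal size, from the lowest exon GC content to the highest, the median log2 fold change ran from -0.30 over -0.10 and 0.18 to 0.43, and the share called higher rose from 4.5% to 56.2%. NKX2-5 (68.6% GC), IRX4 (67.1%) and GATA4 (60.1%) belong to the highest class and HAND2 (55.3%) to the one before it. With a GC correction added after seeing the data, all 4 factors still passed the threshold, with smaller log2 fold changes of 0.65 ± 0.13 for IRX4 (adjusted p = 0.000853), 0.28 ± 0.07 for NKX2-5 (adjusted p = 0.00569), 0.48 ± 0.09 for HAND2 (adjusted p = 0.000402) and 0.29 ± 0.06 for GATA4 (adjusted p = 0.00143). In RemoLV vs. the other groups the class medians lay between -0.01 and 0.04, and the GC correction changed none of its calls among the factors.

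**Figure D4:**
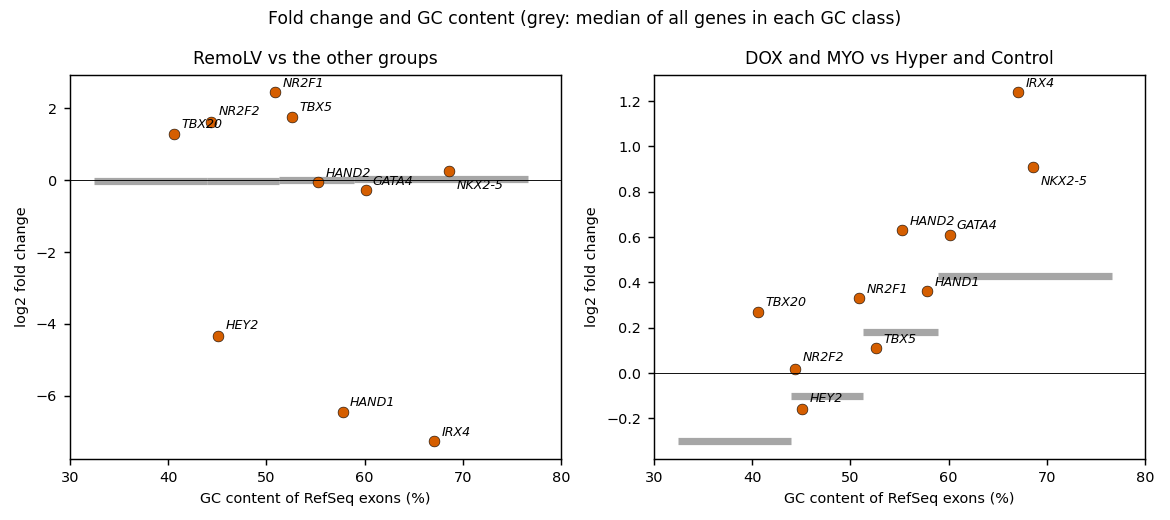
Log2 fold change (y axis) against GC content of the RefSeq exons in percent (x axis) for the 10 factors (points), with grey bars for the median of all genes in each of the 4 GC classes, in RemoLV vs. the other groups (left) and DOX and MYO vs. Hyper and Control (right). On the right the grey bars rise from -0.30 to 0.43, and on the left they stay between -0.01 and 0.04.

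IRX3 (log2 fold change 0.51 ± 0.19, adjusted p = 0.0335) and IRX5 (1.37 ± 0.41, adjusted p = 0.00964) were also higher in DOX and MYO than in Hyper and Control. IRX1, IRX2 and IRX6 passed the filter on low counts only through DOX and MYO, where they were high, so that their values are a description. Of the 25 listed transcription factors tested, 11 were higher, these 3 included, and 5 lower, against 50.7% of all genes called in this comparison. IRX2 had 209 counts in the 10 DOX and MYO libraries and 7 in the 6 others, a ratio of levels of 19.2 (95% exact interval 9.15 to 48.3), and IRX6 had 235 and 14 counts, a ratio of 10.8 (6.30 to 20.0). IRX6 was uneven, with 0 counts in MYO replicates 1 and 5 and 1 in DOX replicate 2. Of the 12 Notch genes 7 were higher and 3 lower, and of the 13 retinoic acid genes 4 were higher and 2 lower, against the same 50.7%. The part of GC content in these counts was not tested.

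Each model was also set against the libraries titled Control, which these comparisons share. Which of the namings the study's own comparisons used was not tested. In DOX vs. Control 4 factors were higher and none lower (42.1% of all genes called), which were IRX4 (1.14 ± 0.18, adjusted p = 0.000125), NKX2-5 (1.08 ± 0.15, adjusted p = 4.52e-05), HAND2 (0.85 ± 0.15, adjusted p = 0.000233) and GATA4 (0.59 ± 0.10, adjusted p = 0.000183). In MYO vs. Control the corresponding values were 1.10 ± 0.18 for IRX4, 1.03 ± 0.15 for NKX2-5, 0.64 ± 0.14 for HAND2 and 0.57 ± 0.10 for GATA4, with adjusted p between 7.17e-05 and 0.00196, and 5 factors were called, these 4 higher and TBX20 lower, against 42.4% of all genes. HAND1 did not pass in either, passed with DESeq2 in DOX (0.40, adjusted p = 0.0339) and MYO (0.38, adjusted p = 0.0409) and with only the groups compared (0.42, adjusted p = 0.0492, and 0.39, adjusted p = 0.0372), and did not pass with the GC correction (0.14, adjusted p = 0.641, and 0.09, adjusted p = 0.767). With the GC correction, IRX4 (0.50, adjusted p = 0.0506) and GATA4 (0.23, adjusted p = 0.0588) lost the call in DOX, where NKX2-5 kept it at 0.38 (adjusted p = 0.0102), and IRX4 (0.38, adjusted p = 0.132), GATA4 (0.16, adjusted p = 0.184) and NKX2-5 (0.25, adjusted p = 0.0784) in MYO.

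In RemoLV vs. Control 7 factors were called (47.2% of all genes), with NR2F1, NR2F2, TBX5 and NKX2-5 higher and HEY2, IRX4 and HAND1 lower. The calls of IRX4 and HAND1 are a description here too, because of the filter on low counts. NKX2-5 rose there by 0.85 ± 0.17 (adjusted p = 0.000496), with 67.2 to 68.3 CPM in RemoLV and 34.4 to 39.2 CPM in Control, although it did not pass against all other groups together. With the GC correction NKX2-5 was 0.35 (adjusted p = 0.0175) and 9 factors were called, TBX20 (1.10, adjusted p = 0.0279) and GATA4 (-0.27, adjusted p = 0.0306) besides these 7. TBX20 missed the threshold in edgeR (0.91 ± 0.37, adjusted p = 0.0518) and passed it with DESeq2 (0.89, adjusted p = 0.0393) and among genes with a mean of at least 1 CPM (0.93, adjusted p = 0.0468). In Hyper vs. Control no factor passed the threshold in edgeR or DESeq2, and 1, TBX20, had an unadjusted p under 0.05. Over all genes 0% were called by edgeR, where 2418 had an unadjusted p under 0.05 and DESeq2 called 311.

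TBX20 varied between the pigs of a group. In DOX it had 19.2, 22.7, 23.9, 18.5 and 9.16 CPM, and in MYO 4.99, 10.7, 5.64, 10.5 and 8.55 CPM. Control libraries had 17.7, 6.12 and 20.2 CPM, and Hyper libraries 7.35, 5.49 and 8.45 CPM. DOX replicate 5 and Control replicate 2 were the low libraries of their groups, and DOX replicate 5 is called MYO in the authors' table. In MYO vs. Control TBX20 had a log2 fold change of -0.86 ± 0.34 (adjusted p = 0.0476), a call that was lost when any of MYO replicates 1, 3 and 5 or Control replicates 1 and 3 was left out (-0.55 to -0.88, adjusted p 0.0652 to 0.285), with only the groups compared (-0.88, adjusted p = 0.0877) and with the GC correction (-0.50, adjusted p = 0.309). In Hyper vs. Control it was -1.04 ± 0.39 (adjusted p = 0.19), and without Control replicate 2 it passed (-1.42, adjusted p = 0.00839). In DOX vs. MYO no factor passed the threshold in edgeR or DESeq2, and TBX20 (1.21 ± 0.30, adjusted p = 0.692) and TBX5 (0.41 ± 0.17, adjusted p = 0.695) were the 2 with an unadjusted p under 0.05. Over all genes 0% were called in that comparison by edgeR, where 960 had an unadjusted p under 0.05, and DESeq2 called 2.

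The genes whose log2 CPM was most like that of each factor were sought among 12640 genes with a symbol, as a description of libraries that share group differences. Over 19 libraries, HAND1 was most like IRX3 (Pearson r = 0.987), IRX4 most like PYGB (0.98), HEY2 most like DNAJB5 (0.966) and NR2F2 most like SH3GL2 (0.962). TBX5 was most like EPHA4 (0.955) and NR2F1 most like KIF1A (0.935). Without RemoLV, over 16 libraries, no factor kept its first gene: NKX2-5 was most like IDUA (0.977), IRX4 most like TMEM238 (0.967), TBX20 most like PDE4B (0.914) and HAND1 most like PIGT (0.909). NR2F2 had no gene above 0.745 in the latter set.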

How the data were processed

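Poly(A) RNA of 19 myocardial samples was sequenced in pairs with a directional kit. Per the labels and the study's methods, the authors aligned reads to Sscrofa11.1 with STAR, counted them per Ensembl gene with HTSeq 0.11.1 (union mode, reverse strand) and deposited raw counts. The authors also deposited a table of log2 expression values, transformed by them, which was used here for symbols and for matching library names only. Its columns of DESeq2 log2 fold changes and adjusted p-values were not used.

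Counts were scaled with TMM and filtered with filterByExpr in edgeR 4.0.16 (R 4.3.3). Differences were tested with the quasi-likelihood test in a single 5-group model with no blocking term, and p-values were adjusted over 13552 genes (Benjamini-Hochberg). RemoLV vs. the other groups weights the 4 other groups equally. CPM use TMM-scaled totals. DESeq2 1.42.0 and other settings were alternatives, and the procedure was tested on simulated data. Exon GC content, positions and promoters came from RefSeq on Sscrofa11.1, and 11988 tested genes (88.5%) had a GC value. The GC correction fits, for each library, a lowess curve on GC content to the deviations of log2 CPM from each gene's mean over the libraries. The curve enters the model as an offset, and the model is refitted on the genes with a GC value. Markers and pathway genes were named by rule: the 3 with the largest significant change in RemoLV vs. the other groups and the 2 in DOX and MYO vs. Hyper and Control. Some genes that this rule names are not reported here. For each factor the most alike genes by Pearson correlation were named. IRX1, BMP10, HAMP, NOTCH4, HES1 and HEY1 fall outside the rule and were named after their values were seen. The factors, lists and rules were chosen with earlier results of these data known. Replicates are separate pigs. The totals limit a level near 0 to what 3 counts allow, and intervals cover counting error only.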

Additional observations from a re-analysis of the deposited data

Results flagged for a closer look

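Effects against Control that pointed one way in every library of one group and the other way in every library of another were looked for, and the differences between these effects were not tested. IRX4 had a log2 fold change of 1.14 in DOX and 1.10 in MYO, but -6.77 in RemoLV and -0.23 in Hyper. HAND1 had 0.42 in DOX and 0.41 in MYO, but -6.22 in RemoLV. NR2F2 had 1.52 in RemoLV and -0.23 in Hyper. TBX20 had 0.91 in RemoLV, but -0.86 in MYO and -1.04 in Hyper. All of these share the 3 Control libraries, whose name the authors' table gives to the RemoLV libraries. No library stood apart by Dixon's criterion in the 20 tests of a factor in DOX or MYO, where chance flags about 1 in 20.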

How the results depend on the processing

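The 3 lower and 4 higher factors whose RemoLV libraries did not overlap the others kept their direction and call in every alternative that keeps those 3 libraries together, including the names of the table for the same 3 libraries, where 8 factors were called. Of the lower ones, IRX4 and HAND1 passed the filter on low counts only through the other groups, so that their calls are a description. Leaving out 1 library gave 7 to 8 factors called in RemoLV vs. the other groups, 0 to 1 in Hyper vs. Control, 4 in DOX vs. Control and 4 to 5 in DOX and MYO vs. Hyper and Control.

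With the names of the table, RemoLV vs. the other groups gave -0.87 for NR2F1, -0.28 for NR2F2, 1.50 for HEY2, 1.19 for IRX4, 1.32 for HAND1, -0.40 for TBX5 and -0.81 for NKX2-5. RemoLV vs. Control then gave -2.68 for NR2F1, -1.52 for NR2F2, 4.68 for HEY2, 6.77 for IRX4, 6.22 for HAND1, -0.37 for HAND2, -1.73 for TBX5, -0.91 for TBX20, 0.01 for GATA4 and -0.85 for NKX2-5. DOX vs. Control gave -2.02 for NR2F1, 4.40 for HEY2, -1.63 for TBX5 and -0.62 for TBX20, and MYO vs. Control -2.62 for NR2F1 and 4.15 for HEY2, with 8 factors called in each and 4008 and 3951 genes in all. NKX2-5 lost its call in DOX (0.17, adjusted p = 0.41) and MYO (0.24, adjusted p = 0.236) and HAND2 in MYO (0.31, adjusted p = 0.127), while IRX4 became 7.91 and 7.86 and HAND1 was called at 6.60 and 6.67. Hyper vs. Control gave -2.57 for NR2F1, 4.18 for HEY2, 6.53 for IRX4, -0.15 for HAND2 and -0.55 for NKX2-5, with 8 called and 4856 genes in all. DOX and MYO vs. Hyper and Control gave -1.04 for NR2F1, -0.74 for NR2F2, 2.18 for HEY2, -0.74 for TBX5 and -0.15 for TBX20, IRX4 became 4.62 and HAND1 was called at 3.47, with 9 called and 4789 genes in all. These follow from the exchange of libraries between groups.

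With the GC correction, 2 factors and 3772 genes were called in DOX vs. Control and 1 factor and 3480 genes in MYO vs. Control, NR2F2 became 0.11 and 0.17 there, HAND1 -0.01 in Hyper vs. Control and HEY2 0.02 in DOX and MYO vs. Hyper and Control. Without the libraries titled Control, chosen after seeing the data, HEY2 became 0.09 and TBX20 0.79 (adjusted p = 0.031) there. A minimum mean of 1 CPM made GATA4 0.01 in RemoLV vs. Control. Leave-one-out ranges crossed 0 for NR2F2 in DOX and MYO vs. Hyper and Control (-0.02 to 0.05), NR2F1 in MYO vs. Control (-0.10 to 0.50), TBX20 in DOX vs. Control (-0.02 to 0.66), and NR2F1 (-0.33 to 0.41) and GATA4 (-0.14 to 0.04) in Hyper vs. Control. The cause was not tested.

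Genes called numbered 5442 in RemoLV vs. the other groups, and 3177 with equal weight per library. In Hyper vs. Control they numbered 0, 311 with DESeq2 (2 in place of 0 in DOX vs. MYO), 6 without a filter, 1 with only the groups compared, and 0 to 2538 when 1 library was left out, the most without Control replicate 2. In DOX vs. Control 5704 fell to 3787 without Control replicate 3. Replicate numbers did not pair the pigs (same-number correlations -0.25 to 0.24 over 32 pairs, and 4 of 19 libraries correlated best with their own number). With a replicate block 8 factors were called in RemoLV vs. the other groups, NR2F2 became -0.09 in DOX and MYO vs. Hyper and Control, and TBX20 lost its call in MYO vs. Control (-0.73, adjusted p = 0.164). Depth limits IRX4 and HAND1 in RemoLV, at most 2 and 9 counts per library.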
